A study of Mus musculus with 6 samples.

Results

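Cyclins, cyclin-dependent kinases (CDKs), Cdc25 phosphatases and E2F transcription factors were compared between haematopoietic stem cells (HSC) of wildtype and PU.1 knockdown mice. The genes were chosen by symbol: cyclins A to H, J, K, L, T and Y, numbered CDKs, Cdc25a to Cdc25c and E2f1 to E2f8, leaving out Ccng1, Ccna2, Ccnb1, Ccnb2 and Cdk1. This gave 46 of the 18186 genes named on the array, measured by 118 of its 44991 probe sets. The rule itself used symbols, and mean brightness to pick each gene's probe set. The members were chosen with earlier results of these data known. Per the labels and the series' design, HSC were sorted from bone marrow by flow cytometry, each array held RNA pooled from 3 animals, and each group had 3 arrays (WT HSC and PU.1 KD HSC, pools 1 to 3). The RNA was amplified in 2 rounds before it was hybridised to Affymetrix mouse expression arrays. The sources used here do not give how or in which cells PU.1 was reduced, the strain and age of the mice, or the markers of the sort.

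Cyclins are regulatory subunits that switch on CDKs, and the resulting kinases drive a cell from the resting state through DNA synthesis and division. D-type cyclins with Cdk4 and Cdk6 phosphorylate the retinoblastoma protein, which releases E2F factors to transcribe cyclin E, replication and mitotic genes, while Cdc25 phosphatases remove inhibitory phosphates from CDKs. Another branch of the family, among them Cdk7, Cdk8 and Cdk9, acts on RNA polymerase II. Most adult HSC are quiescent, and PU.1, an ETS family transcription factor, is known to restrain their cycling.

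Differences between the groups went both ways in this family and none passed the adjusted test. Of the 46 genes, 23 were higher and 23 lower on average in the knockdown pools, and 0 had a limma p under 0.05 after Benjamini-Hochberg adjustment over all probe sets (background 0% of all genes). At an unadjusted limma p under 0.05 there was 1 member, Cdk4, or 2.17% of the members, beside a background of 7.63% of all genes. Which member had such a p depended on single arrays: it was E2f2 alone without wildtype pool 1, Cdk18 without wildtype pool 3, Ccna1 without knockdown pool 2 and Ccnt2 without knockdown pool 3. It was Cdk4, E2f4 and Ccna1 without wildtype pool 2, and E2f4 and Cdk18 without knockdown pool 1. The groups did not overlap for 7 members, or 15.2%, beside 13.8% of all genes. Of these 7, Cdk4, E2f2, E2f6, E2f7 and Ccna1 were higher in all knockdown pools, 5 of 46 beside 8.42% of all genes, and Ccnc and Ccny were lower, 2 of 46 beside 5.39%. With the values as deposited, without quantile normalisation, 3 members did not overlap (Cdk4 higher, Ccnc and Ccny lower), beside 13.8% of all genes, and E2f2, E2f6, E2f7 and Ccna1 overlapped. Values are log2(intensity + 16) and a difference is knockdown minus wildtype on that scale, which understates the change of dim genes; a mean is given ± SD over n = 3 pools.

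The differences of the family were small. The largest were -0.47 for E2f4 and 0.35 for E2f2, so 0 members differed by more than 0.5, a size passed by 7.52% of all genes. E2f4 passed that size in other settings, with -0.55 as deposited, -0.64 with array weights, -0.69 without wildtype pool 2 and -0.66 without knockdown pool 1. So did Cdk18 without wildtype pool 3 (-0.53) or knockdown pool 1 (-0.53), and Ccnt2 (-0.64), Ccnj (-0.53) and Cdk17 (-0.51) without knockdown pool 3. The median size was 0.12 for the members and 0.15 for all genes, with a median standard error (SE) of 0.17 and 0.18. For 44 members the 95% interval of the limma fit lay between -1 and 1, a change of 2-fold in intensity + 16 in either direction. For dim members a 2-fold change in intensity itself is smaller than 1 on this scale, so an interval within these limits can still hold it. The interval reached past -1 for E2f4 and Cdk17. For 21 members the interval lay between -0.5 and 0.5. The size of the difference was below the larger of the group SDs for 36 of 46 members. These counts of intervals and SDs were not taken over all genes, so they do not set the family apart. The split depended on scaling: with the values as deposited 16 of 46 members (34.8%) and 41.9% of all genes were higher, in place of 50% and 53.4%.

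**Figure D1:**
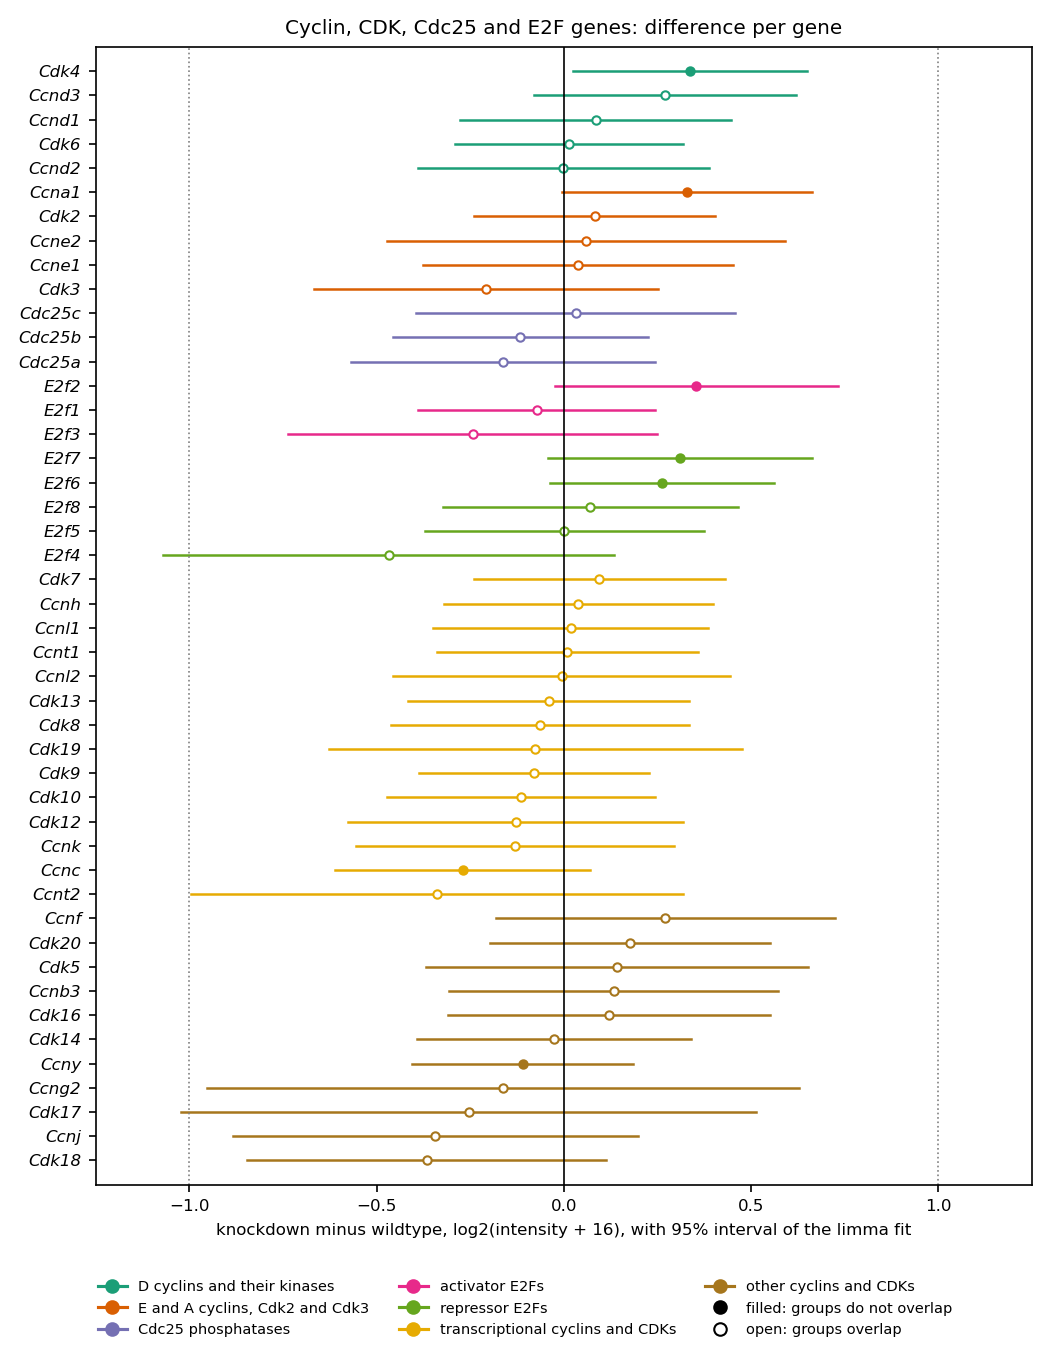
Difference of each of the 46 genes, knockdown minus wildtype in log2(intensity + 16), with the 95% interval of the limma fit. Colours mark role groups, filled points the 7 genes whose groups do not overlap, and dotted lines a change of 2-fold in intensity + 16. The points lie between -0.47 and 0.35, and the interval of Cdk4 alone excludes 0.

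The targeted gene and markers of cell types were read first, and the purity of the sorted cells was not tested. Spi1, which encodes PU.1, had log2 values of 10.13, 9.42 and 10.08 in the wildtype pools and 8.73, 8.55 and 7.06 in the knockdown pools, with no overlap (difference -1.76, SE 0.43). Its unadjusted limma p was 0.00364 and its adjusted p 0.503, so the targeted gene itself did not pass the adjusted test. The smallest adjusted limma p of any probe set was 0.171, so a count of 0 does not set the family apart. Wildtype pool 2 stood apart from the other arrays in stem cell and neutrophil markers, and other pools stood apart in other markers. Of 10 stem cell markers 8 were matched (Kit, Procr, Slamf1, Cd34, Meis1, Hlf, Mecom and Tek), and their summed intensity was 12594 in wildtype pool 2 and 6407 to 7898 on the other 5 arrays. Between the groups 6 of these 8 were lower on average in the knockdown pools; Tek (-0.99, SE 0.21) did not overlap, Mecom (-0.82, SE 0.34) did, and Procr and Slamf1 were the higher ones (0.28, SE 0.40 and 0.12, SE 0.17). None of these passed the adjusted limma test. Of 9 neutrophil markers, such as Elane and Camp, all were matched, with a summed intensity of 23437 in wildtype pool 2 beside 46413 to 59239 on the other arrays. Over the 6 arrays the mean of the neutrophil markers was 11.01 to 12.57, beside 9.34 to 10.15 for the 8 stem cell markers. Mki67, a gene of cycling cells, read 11.67 to 11.93. In the order wildtype, knockdown, the summed markers of megakaryocytes ran from 7250 to 14751 and from 2372 to 7699, of eosinophils, mast cells and basophils from 2053 to 10452 and from 2017 to 3484, and of monocytes from 6213 to 8973 and from 3540 to 7151. For erythroid cells (4 of 7 markers matched) they ran from 1380 to 3865 and from 2098 to 7111, for B cells (5 of 6) from 1227 to 1628 and from 420 to 1416, and for T and NK cells (5 of 6) from 1452 to 4327 and from 2554 to 4069. Most of the T and NK cell sum was Nkg7, at log2 values of 9.87 to 11.86, beside 5.16 to 8.49 for Cd3e, Cd3d, Cd3g and Gzma. Knockdown pool 2 held the lowest megakaryocyte sum (2372) and the highest erythroid sum (7111). Knockdown pool 3 held the lowest monocyte (3540) and B cell (420) sums. The sum for eosinophils, mast cells and basophils joined genes of opposite direction: every knockdown pool lay below every wildtype pool for the eosinophil genes Epx (-3.69, SE 0.88) and Prg2 (-3.06, SE 0.74), while Cpa3 (2.05, SE 0.35), Mcpt8 (1.71, SE 0.46) and Gzmb (2.69, SE 0.53) were higher in all of them. In average differences, 6 of 6 megakaryocyte, 6 of 6 monocyte and 4 of 5 B cell markers were lower, and 7 of 9 neutrophil, 3 of 4 erythroid and 3 of 5 T and NK cell markers were higher. None of the matched markers was at or below the floor of 1 on any array. The part of these cells in the results below was not tested, and in pooled RNA fewer cells of a type and less RNA per cell cannot be told apart.

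Cdk4, the catalytic partner of the D cyclins, had the smallest p of the family. Its values were 11.13, 11.35 and 11.27 in the wildtype pools and 11.62, 11.59 and 11.55 in the knockdown pools. The 3 knockdown pools lay within 0.070 of each other and above every wildtype pool. The difference was 0.34 (SE 0.13, 95% interval 0.025 to 0.65), with an unadjusted limma p of 0.0374, an adjusted p of 0.676 and an exact two-sided permutation p of 0.1, the smallest that 3 against 3 allows. Its 3 probe sets, 1422441_x_at, 1422440_at and 1422439_a_at, differed by 0.34, 0.44 and 0.27, and on each of them the groups did not overlap. With 1 array left out the Cdk4 difference stayed between 0.28 and 0.39, and the unadjusted limma p ran from 0.0338 without wildtype pool 2 to 0.121 without wildtype pool 1; it was above 0.05 in 5 of these 6 fits, all but the first. With 1422439_a_at, the brightest probe set that does not end in _x_at, a suffix for probe sets whose probes can match other sequences, it was 0.106. With 1422440_at, which does not end in _x_at either, the unadjusted limma p was 0.0166 and the adjusted p 0.610.

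The upstream sequence of Cdk4 is shown because it was the member of smallest p and its letters stand apart. RefSeq start sites were found for 34 of the 46 genes (38 windows of 300 bases, 250 before and 50 after the start, assembly GRCm38.p6). The letters CACGTG, the E-box that MYC and related factors bind, which reads the same on either strand, occurred in 18.4% of the member windows and in 7.15% of all 32851 windows. The Cdk4 window held 4 of them, and 8 of all windows (0.0244%), Cdk4 included, held that many or more. A match of letters is a description of the sequence and not a bound site. The 250 bases before the start of Cdk4 lie at chr10:127063285-127063534 on the plus strand, with the E-boxes in capitals at 172, 118, 98 and 11 bases before the start.
Cdk4: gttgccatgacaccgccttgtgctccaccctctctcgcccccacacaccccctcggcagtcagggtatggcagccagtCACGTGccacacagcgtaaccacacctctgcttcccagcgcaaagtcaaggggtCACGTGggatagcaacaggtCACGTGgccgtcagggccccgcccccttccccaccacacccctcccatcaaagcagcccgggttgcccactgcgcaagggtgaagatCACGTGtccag

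The other kinase of the D cyclins, Cdk6, differed little and did not pass the test. It read 11.70, 11.75 and 11.88 in the wildtype pools and 11.76, 11.80 and 11.81 in the knockdown pools, and the knockdown pools lay within the wildtype range. Its difference was 0.014 (SE 0.13, 95% interval -0.29 to 0.32), and its second bright probe set, 1455287_at, gave -0.0057 (SE 0.13).

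The D cyclins link growth signals to Cdk4 and Cdk6. Ccnd3 read 10.42, 10.11 and 10.17 in the wildtype pools and 10.62, 10.39 and 10.50 in the knockdown pools, with a difference of 0.27 (SE 0.15, 95% interval -0.079 to 0.62). The groups overlapped because wildtype pool 1 lay above knockdown pool 2. Ccnd1, with 7.82, 8.06 and 8.08 in the wildtype pools and 7.88, 8.18 and 8.16 in the knockdown pools, differed by 0.085 (SE 0.16, 95% interval -0.28 to 0.45), and the values of the groups were interleaved. Ccnd2 read 11.04, 11.31 and 10.87 in the wildtype pools and 11.20, 11.10 and 10.91 in the knockdown pools on its brightest probe set 1416122_at, a difference of -0.0019 (SE 0.17, 95% interval -0.39 to 0.39).

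The 7 probe sets of Ccnd2 did not give the same answer. The 4 brightest differed by -0.14 to 0.039. The 3 dimmest were higher in the knockdown pools, by 0.70 (SE 0.28) on 1416124_at, 0.41 (SE 0.16) on 1416123_at and 0.37 (SE 0.16) on 1448229_s_at, with unadjusted limma p of 0.0385, 0.0396 and 0.0496. The last of these read 9.20, 9.57 and 9.12 in the wildtype pools and 9.68, 9.71 and 9.63 in the knockdown pools, without overlap. On 1416123_at the groups did not overlap either. With 2 of Cdk4 the 3 dimmest were the 5 member probe sets with an unadjusted limma p under 0.05, or 4.24% of 118, beside 7.11% of all probe sets. Which transcript parts these probe sets cover was not analysed here. Of the 5 genes for D cyclins and their kinases, 4 were higher, as with the values as deposited, with a median difference of 0.085 beside 0.018 for all genes; without wildtype pool 1 it was 2 of 5.

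**Figure D2:**
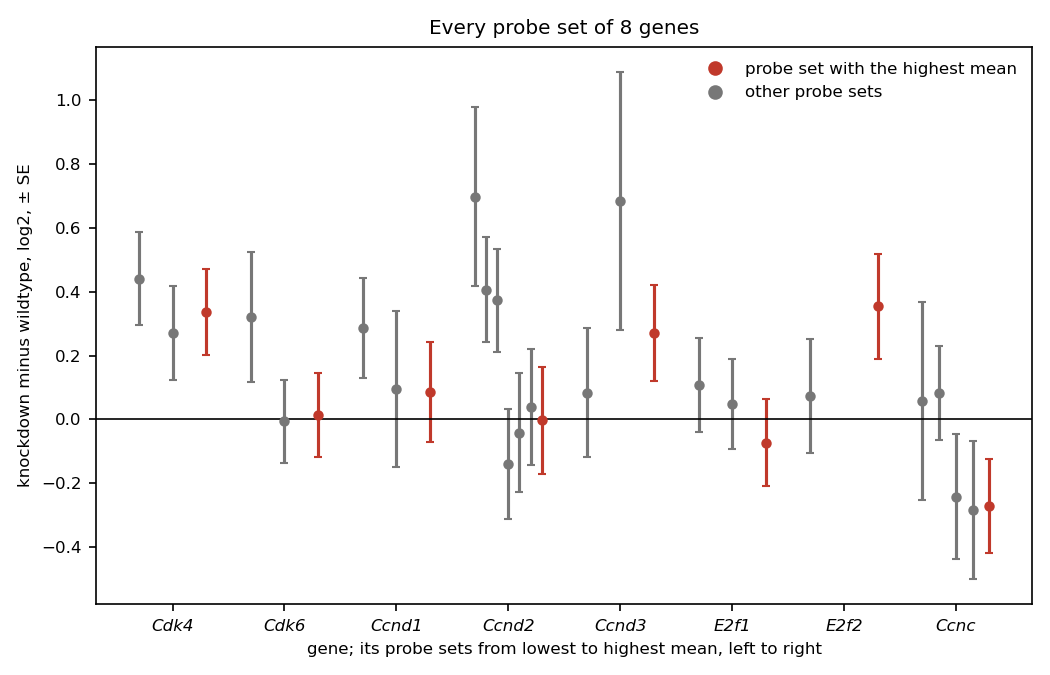
Difference ± SE of every probe set of 8 genes, ordered from the lowest to the highest mean within each gene; red marks the probe set with the highest mean. The 3 probe sets of Cdk4 lie between 0.27 and 0.44, while those of Ccnd2 run from -0.14 to 0.70.

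Cyclins E and A act with Cdk2 at the start of DNA synthesis. Of these genes with Cdk3, 4 of 5 were higher, but 2 of 5 with the values as deposited and without wildtype pool 2 or knockdown pool 2. Cdk2 itself read 9.11, 9.06 and 9.14 in the wildtype pools and 9.22, 9.04 and 9.31 in the knockdown pools, with overlapping groups and a difference of 0.083 (SE 0.14, 95% interval -0.24 to 0.40). Ccne1 read 9.78, 9.24 and 9.63 in the wildtype pools and 9.56, 9.73 and 9.47 in the knockdown pools, a difference of 0.038 (SE 0.18, 95% interval -0.38 to 0.45); wildtype pool 2 was lowest. Ccne2 read 7.14, 6.94 and 7.39 in the wildtype pools and 6.77, 7.56 and 7.32 in the knockdown pools, a difference of 0.059 (SE 0.23, 95% interval -0.47 to 0.59), and knockdown pools 1 and 2 were its extremes. Ccna1, a cyclin A best known from germ cells and early myeloid cells, was dim, at 6.28, 6.41 and 6.17 in the wildtype pools and 6.69, 6.48 and 6.68 in the knockdown pools. All knockdown pools lay above all wildtype pools, knockdown pool 2 by a small margin, but with the values as deposited wildtype pool 2 lay just above knockdown pool 2. The difference was 0.33 (SE 0.14, 95% interval -0.0043 to 0.66), with an unadjusted limma p of 0.0524 and an exact permutation p of 0.1. Cdk3, a kinase of the exit from quiescence, was dim too, at 5.69, 6.17 and 5.59 in the wildtype pools and 5.45, 5.52 and 5.85 in the knockdown pools. The groups overlapped, with wildtype pool 2 highest, and the difference was -0.21 (SE 0.20, 95% interval -0.67 to 0.25).

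The Cdc25 phosphatases activate CDKs, and 1 of 3 was higher, or 0 of 3 with the values as deposited. Cdc25a, the member that acts at the G1 to S transition, read 9.88, 9.64 and 10.01 in the wildtype pools and 9.42, 9.86 and 9.76 in the knockdown pools, a difference of -0.16 (SE 0.18, 95% interval -0.57 to 0.24), with overlap. Cdc25b and Cdc25c act mainly at the entry into mitosis. Cdc25b read 8.54, 8.72 and 8.74 in the wildtype pools and 8.45, 8.48 and 8.73 in the knockdown pools, a difference of -0.12 (SE 0.15, 95% interval -0.46 to 0.22). Cdc25c read 7.69, 7.11 and 7.56 in the wildtype pools and 7.47, 7.61 and 7.37 in the knockdown pools, a difference of 0.031 (SE 0.18, 95% interval -0.40 to 0.46). In all 3 genes the groups overlapped, and for Cdc25c wildtype pool 2 was lowest.

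The activator E2Fs, E2f1 to E2f3, bind the retinoblastoma protein and turn on replication genes. E2f2 was higher in all knockdown pools, with 8.44, 8.17 and 7.94 in the wildtype pools and 8.58, 8.51 and 8.52 in the knockdown pools. The knockdown pools were close together and the wildtype pools were spread over 0.50. With the values as deposited wildtype pool 1 lay above knockdown pool 1, and the difference was 0.27 with a limma p of 0.146. The difference was 0.35 (SE 0.16, 95% interval -0.025 to 0.73), with an unadjusted limma p of 0.0633, an exact permutation p of 0.1 and, on the dimmer probe set 1455790_at, a difference of 0.074 (SE 0.18). E2f1 read 8.25, 8.29 and 8.16 in the wildtype pools and 8.04, 8.23 and 8.21 in the knockdown pools, a difference of -0.073 (SE 0.14, 95% interval -0.39 to 0.24) with overlapping groups. Its other probe sets, 1417878_at and 1431875_a_at, gave 0.049 and 0.11. E2f3 read 8.84, 9.34 and 9.25 in the wildtype pools and 8.53, 9.10 and 9.07 in the knockdown pools, a difference of -0.24 (SE 0.21, 95% interval -0.74 to 0.25), with knockdown pool 1 lowest.

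The remaining E2Fs mainly repress transcription, and 4 of 5 were higher, but 3 of 5 with the values as deposited and 2 of 5 without wildtype pool 2 or knockdown pool 1. E2f6, which recruits Polycomb proteins and does not bind the retinoblastoma protein, read 9.71, 9.84 and 9.78 in the wildtype pools and 10.06, 10.05 and 10.001 in the knockdown pools, without overlap and with little spread within either group after normalisation. With the values as deposited wildtype pool 2 lay above knockdown pool 1, with a limma p of 0.196. Its difference was 0.26 (SE 0.13, 95% interval -0.038 to 0.56), with an unadjusted limma p of 0.0783. E2f7, an atypical E2F that represses E2F targets, read 8.63, 8.64 and 8.48 in the wildtype pools and 8.75, 8.81 and 9.11 in the knockdown pools, also without overlap, and knockdown pool 3 was highest. With the values as deposited wildtype pools 1 and 2 lay above knockdown pool 1, with a limma p of 0.225. Its difference was 0.31 (SE 0.15, 95% interval -0.043 to 0.66), with a p of 0.0772 by limma; for E2f6 and E2f7 the exact permutation p on the normalised values was 0.1. E2f8, the partner of E2f7, read 11.47, 11.16 and 11.28 in the wildtype pools and 11.52, 11.11 and 11.49 in the knockdown pools, a difference of 0.071 (SE 0.17, 95% interval -0.32 to 0.46) with overlap. E2f5 read 10.19, 10.12 and 10.50 in the wildtype pools and 10.42, 10.15 and 10.25 in the knockdown pools, a difference of 0.00062 (SE 0.16, 95% interval -0.37 to 0.37). E2f4, the main E2F of quiescent cells, read 9.46, 8.77 and 9.44 in the wildtype pools and 9.13, 8.78 and 8.36 in the knockdown pools. Wildtype pools 1 and 3 were highest and knockdown pool 3 lowest, but wildtype pool 2 lay at the level of knockdown pool 2. The difference was -0.47 (SE 0.26, 95% interval -1.07 to 0.13), with an unadjusted limma p of 0.11; without wildtype pool 2 it was -0.69 with a limma p of 0.0235, without knockdown pool 1 -0.66 with a p of 0.0445, and with the values as deposited -0.55 with a p of 0.0433.

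**Figure D3:**
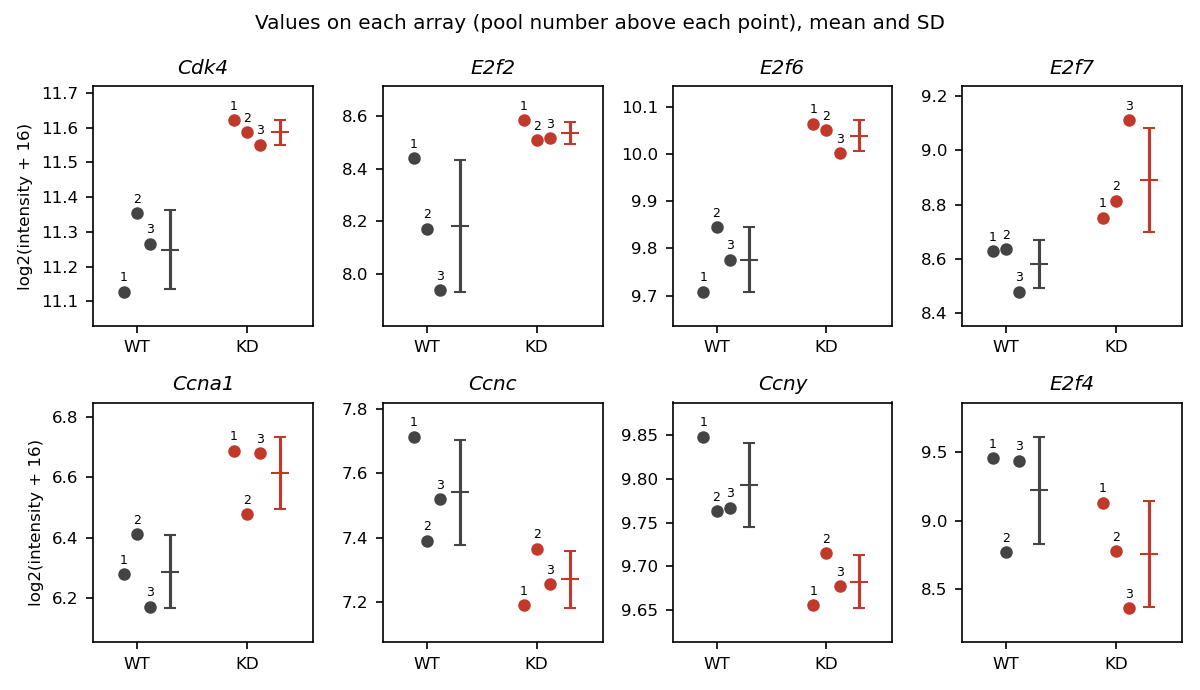
Log2(intensity + 16) on each array for the 7 genes whose groups do not overlap and for E2f4, with pool numbers above the points and the mean and SD of each group (n = 3) beside them; each panel has its own vertical range. Cdk4, E2f2, E2f6, E2f7 and Ccna1 are higher and Ccnc and Ccny lower in all knockdown pools, while E2f4 overlaps through wildtype pool 2.

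Upstream sequences of E2f7 and Cdc25a are shown because they hold both an E2F and a PU.1 letter match, and these genes lay on opposite sides of 0. E2F letters were TTTCCCGC, TTTCGCGC, TTTGCCGC and TTTGGCGC on either strand, and the PU.1 core was GAGGAA on either strand. E2F letters were found in 13.2% of member windows (Cdc25a, Cdk2, E2f2, E2f3 and E2f7) and in 2.26% of all windows. The PU.1 core was found in 26.3% of member windows and in 28.3% of all windows, a share near the background. Capitals mark the matches: in E2f7 (chr10:110745189-110745438, plus strand) the E2F letters start 198 and the PU.1 core 112 bases before the start, and in Cdc25a (chr9:109875329-109875578, plus strand) the PU.1 core starts 148 and the E2F letters 67 bases before it.
E2f7: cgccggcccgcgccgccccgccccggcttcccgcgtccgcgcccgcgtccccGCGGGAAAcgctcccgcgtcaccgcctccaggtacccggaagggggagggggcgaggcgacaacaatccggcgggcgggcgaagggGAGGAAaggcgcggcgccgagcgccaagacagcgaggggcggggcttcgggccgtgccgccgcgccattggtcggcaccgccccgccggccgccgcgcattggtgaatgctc
Cdc25a: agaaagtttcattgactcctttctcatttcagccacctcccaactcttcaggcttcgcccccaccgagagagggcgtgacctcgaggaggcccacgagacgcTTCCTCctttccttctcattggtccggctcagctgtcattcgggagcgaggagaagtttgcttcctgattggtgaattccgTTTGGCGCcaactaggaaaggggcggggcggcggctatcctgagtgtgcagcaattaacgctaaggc

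The cyclins and CDKs of transcription and splicing had 14 members, of which 10 were lower and 4 higher on average, with a median difference of -0.070 beside 0.018 for all genes; 0 had an unadjusted limma p under 0.05. This count varied with scaling, from 9 of 14 lower with median centring to 13 of 14 with the values as deposited, and was 8 of 14 without wildtype pool 2, 7 of 14 with array weights and 6 of 14 without knockdown pool 1, where the majority turned. Ccnc, the cyclin of the Mediator kinases Cdk8 and Cdk19, read 7.71, 7.39 and 7.52 in the wildtype pools and 7.19, 7.37 and 7.26 in the knockdown pools. The groups did not overlap, but wildtype pool 2 lay only just above knockdown pool 2. The difference was -0.27 (SE 0.15, 95% interval -0.61 to 0.07), with an unadjusted limma p of 0.104 and an exact permutation p of 0.1. With the values as deposited the difference was -0.35 with an unadjusted limma p of 0.045. Its kinases showed no such separation: Cdk8 differed by -0.064 (SE 0.17, 95% interval -0.46 to 0.33) and Cdk19 by -0.076 (SE 0.24, 95% interval -0.63 to 0.47).

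Ccnc is shown with its upstream bases because it was the lower member of smallest p and holds the PU.1 core. The 250 bases lie at chr4:21727451-21727700 on the plus strand, and the core, here as TTCCTC on the printed strand, starts 55 bases before the start of transcription.
Ccnc: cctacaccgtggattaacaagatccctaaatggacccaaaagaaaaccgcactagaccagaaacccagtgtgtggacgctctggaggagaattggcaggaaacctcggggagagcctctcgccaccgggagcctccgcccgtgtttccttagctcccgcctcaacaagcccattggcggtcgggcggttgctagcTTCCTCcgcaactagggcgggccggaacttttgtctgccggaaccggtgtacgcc

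Cyclin T with Cdk9 forms the elongation factor P-TEFb. Ccnt2 read 8.81, 9.11 and 9.06 in the wildtype pools and 8.07, 8.63 and 9.26 in the knockdown pools, a difference of -0.34 (SE 0.28, 95% interval -1.0 to 0.32), and the knockdown pools alone spanned 1.19 with pool 1 lowest and pool 3 highest. Ccnt1 and Cdk9 differed by 0.0093 (SE 0.15) and -0.079 (SE 0.13). Cdk10 read 8.65, 9.01 and 8.79 in the wildtype pools and 8.60, 8.66 and 8.85 in the knockdown pools, a difference of -0.11 (SE 0.15, 95% interval -0.47 to 0.24). Ccnk, the cyclin of Cdk12 and Cdk13, read 6.85, 6.69 and 6.72 in the wildtype pools and 6.27, 6.77 and 6.84 in the knockdown pools, a difference of -0.13 (SE 0.18, 95% interval -0.55 to 0.29), with knockdown pool 1 lowest. Cdk12 and Cdk13 differed by -0.13 (SE 0.19) and -0.041 (SE 0.16). Ccnh and Cdk7, of the CDK-activating kinase, differed by 0.038 (SE 0.16) and 0.094 (SE 0.14), and the splicing cyclins Ccnl1 and Ccnl2 by 0.018 (SE 0.16) and -0.0059 (SE 0.19).

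Among the 11 remaining members, 5 were higher and 6 lower. Ccny, a membrane-bound cyclin, read 9.85, 9.76 and 9.77 in the wildtype pools and 9.66, 9.72 and 9.68 in the knockdown pools, without overlap but with a difference of only -0.11 (SE 0.13, 95% interval -0.41 to 0.19); its other 6 probe sets differed by -0.23 to 0.15. Ccnf, a cyclin that serves a ubiquitin ligase and peaks before mitosis, read 8.74, 8.16 and 8.77 in the wildtype pools and 8.91, 8.70 and 8.86 in the knockdown pools, a difference of 0.27 (SE 0.20, 95% interval -0.18 to 0.72), which was 0.072 without wildtype pool 2, its lowest array. Cdk18 read 6.73, 6.64 and 6.21 in the wildtype pools and 6.49, 5.97 and 6.03 in the knockdown pools, a difference of -0.37 (SE 0.21, 95% interval -0.85 to 0.11), with knockdown pool 1 among the wildtype values. Ccnj read 7.14, 6.97 and 6.86 in the wildtype pools and 6.14, 6.78 and 7.03 in the knockdown pools, a difference of -0.34 (SE 0.23, 95% interval -0.88 to 0.20), with knockdown pool 1 lowest. Cdk17 read 9.94, 10.81 and 10.16 in the wildtype pools and 9.40, 10.18 and 10.56 in the knockdown pools, a difference of -0.25 (SE 0.33, 95% interval -1.02 to 0.51), and its values spanned more than 1 unit. Cdk20 was dim, at 5.26, 5.67 and 5.62 in the wildtype pools and 5.77, 5.74 and 5.57 in the knockdown pools, a difference of 0.18 (SE 0.16, 95% interval -0.20 to 0.55). Ccng2, Cdk5, Cdk14, Cdk16 and Ccnb3 differed by -0.16 (SE 0.34), 0.14 (SE 0.22), -0.027 (SE 0.16), 0.12 (SE 0.19) and 0.13 (SE 0.19). Ccnb3 and the other members at or below the 40th percentile of mean values, Cdk3 and Cdk20, left 43 of 46 above it, and Ccnb3 was the 1 member with an array below the floor of 1.

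For most members the pools of 1 genotype spread further than the genotypes' means lay apart. The range of the wildtype pools was above the size of the difference for 37 of 46 members, and that of the knockdown pools for 38. No share over all genes was taken for these counts, so they do not set the family apart. Knockdown pool 1 held the lowest value of 20 members (43.5%), beside 18.4% of all genes, and wildtype pool 2 the highest value of 13 (28.3%), beside 18.2% of all genes. Ccng2, a cyclin associated with cell cycle arrest, was 8.81, 9.98 and 9.03 in the wildtype pools, with pool 2 1.06 above the mean of the others. Cdk19, Cdk17, Cdk3 and Ccnl1 followed, at 0.77, 0.76, 0.52 and 0.36 above the other wildtype pools. The 5 members furthest below were E2f4 (-0.68), Ccnf (-0.60), Ccnb3 (-0.56), Cdc25c (-0.51) and Ccne1 (-0.46); all these were named after their values were seen. On that array the mean of 8 stem cell markers was 10.15 beside 9.34 to 9.50 on the others, and that of 17 mitosis genes was 9.81 beside 10.26 to 10.39; the part of cell composition was not tested.

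**Figure D4:**
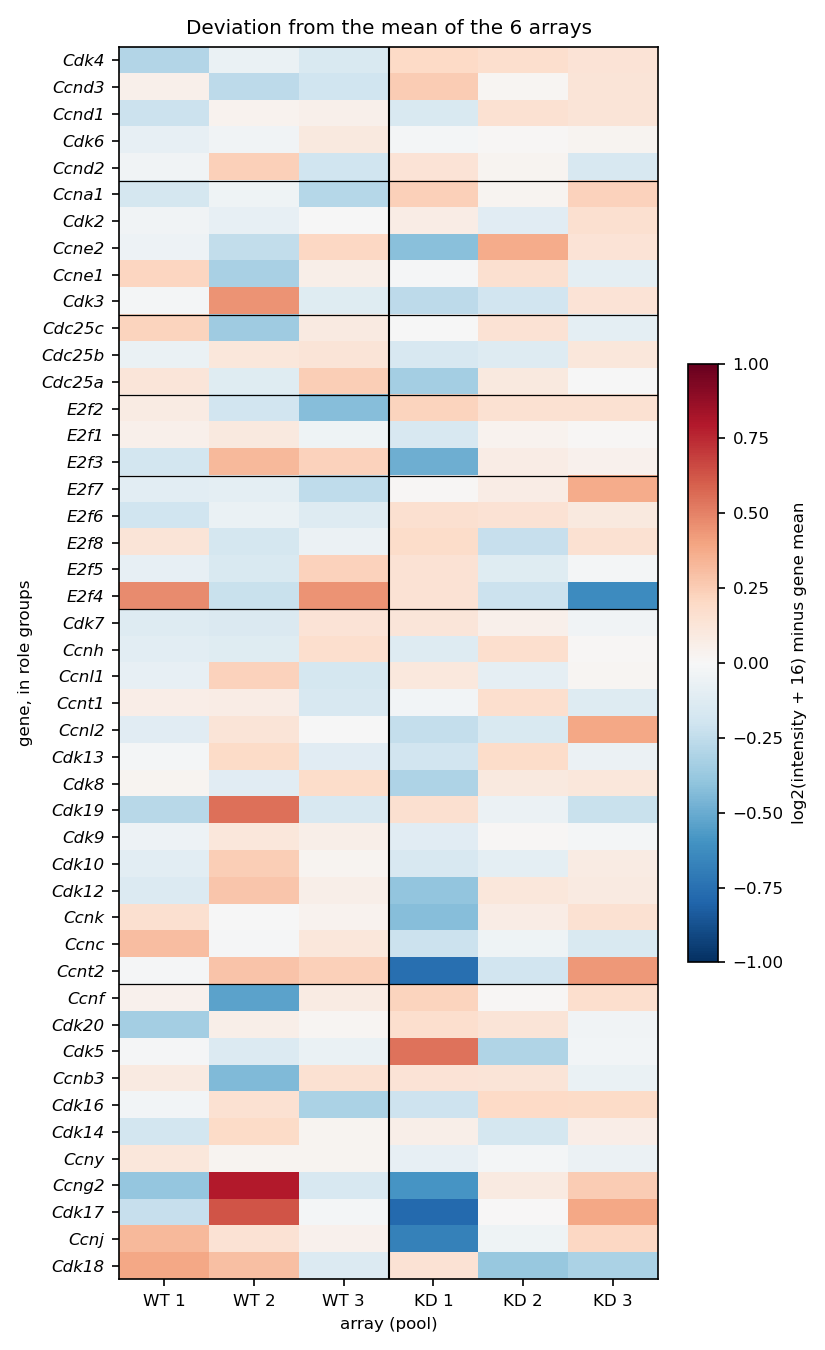
Each gene's log2(intensity + 16) minus its mean over the 6 arrays, in role groups divided by horizontal lines; red is above and blue below the gene's mean. Columns of 1 genotype differ among themselves: knockdown pool 1 holds the lowest value of 20 members and wildtype pool 2 the highest of 13.

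**Figure D5:**
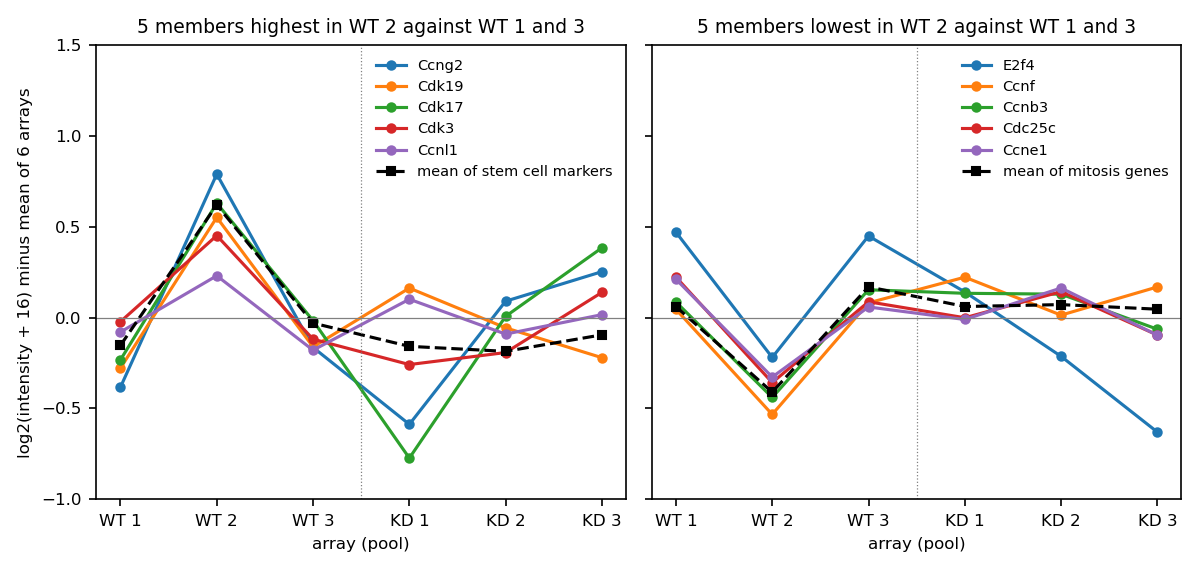
Log2(intensity + 16) minus the mean of the 6 arrays for the 5 members that stand highest (left) and the 5 lowest (right) in wildtype pool 2 against the mean of wildtype pools 1 and 3, with the mean of 8 stem cell markers or 17 mitosis genes as dashed lines. Against the other wildtype pools Ccng2 stands at 1.06 and E2f4 at -0.68, and E2f4, unlike the mitosis mean, is lowest in knockdown pool 3.

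Several probe sets measured 32 of the 46 genes. For 14 of these all probe sets had 1 sign, and for 18 the signs were mixed. Cdk5 had 3 probe sets between 0.14 and 0.21, and the 5 of Ccnt2 ran from -0.34 to -0.022. The groups did not overlap on 14 of the 118 probe sets, or 11.9%, beside 12.9% of all probe sets. On dimmer probe sets this was so for Ccnd2 (1416123_at, 0.41, and 1448229_s_at, 0.37), Ccnt1 (1419313_at, 0.31), Cdk6 (1460291_at, 0.32) and Ccnt2 (1452297_at, -0.31). On the brightest probe sets of these genes the groups overlapped. Taking the mean of all probe sets of a gene, 3 members did not overlap and 2 (Cdk4 and Ccna1) had an unadjusted limma p under 0.05.

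Partners of the family were examined as lists, with counts at an unadjusted limma p under 0.05 to be read against 4.1% of all genes higher and 3.52% lower. For every partner list, counts of higher genes and medians stand beside 53.4% of all genes higher and their median of 0.018. With wildtype pool 2 left out, these were 51.0% and 0.0061. Of the genes the choice left out, Ccna2, Ccnb2 and Cdk1, which drive DNA synthesis and mitosis, and Ccng1, a cyclin induced by p53, were measured, with differences of -0.027 (SE 0.15), 0.21 (SE 0.18), 0.16 (SE 0.17) and -0.022 (SE 0.14), and 0 of 4 passed. The retinoblastoma family, DP and DREAM genes, which work with E2Fs, had 6 of 12 members higher and 0 past that p, with a median of 0.027; the smallest p was that of Foxm1, a mitotic transcription factor (0.17, SE 0.16). With wildtype pool 2 left out, 3 of 12 of these genes were higher and the median was -0.039. The mean of this list was lowest in knockdown pool 1, at 8.73, beside 8.79 in wildtype pool 2 and 8.95 to 9.03 on the other arrays. No partner list was read with an array other than wildtype pool 2 left out, so a lean of this list to either side was not tested. Replication genes that E2Fs are known to turn on were higher in 17 of 22 cases, with a median of 0.12. With wildtype pool 2 left out, 18 of 22 of the replication genes were higher and the median was 0.097. Among them 3 had an unadjusted limma p under 0.05: Orc1, an origin recognition subunit (7.17 ± 0.25 in the wildtype and 7.64 ± 0.063 in the knockdown pools), Prim1, a primase (10.49 ± 0.10 in the wildtype and 10.87 ± 0.07 in the knockdown pools), and Tk1, thymidine kinase (10.48 ± 0.14 in the wildtype and 10.89 ± 0.23 in the knockdown pools). Their differences were 0.48 (SE 0.16), 0.39 (SE 0.14) and 0.42 (SE 0.17), with adjusted p of 0.639, 0.647 and 0.681. Mitosis genes were higher in 13 of 17 cases with a median of 0.15 and 0 past that p; Kif11, a spindle motor, had the smallest (0.36, SE 0.18). Wildtype pool 2 had the lowest mean of this list, as given above. With wildtype pool 2 left out, 7 of 17 of the mitosis genes were higher and the median was -0.022. The sign of that median thus rested on this array, the cause of which was not tested.

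Partners of the transcriptional CDKs were lower in 11 of 15 cases, with a median of -0.15, and 2 had an unadjusted limma p under 0.05. This list also held Cdk5r1, a partner of Cdk5 and not of a transcriptional CDK, which counted among the 11 lower (-0.80, SE 0.43). Med12l, a paralogue of the Mediator subunit that activates Cdk8 with cyclin C, read 8.32, 8.55 and 8.27 in the wildtype pools and 7.56, 7.50 and 7.53 in the knockdown pools, with no overlap. Its difference was -0.85 (SE 0.14), with an unadjusted limma p of 0.000344 and an adjusted p of 0.378. Med12 itself, named after its values were seen, differed by 0.31 (SE 0.15) and was higher in all knockdown pools. Aff1, a scaffold of P-TEFb, had a difference of -0.41 (SE 0.17), with an unadjusted limma p of 0.0464. With wildtype pool 2 left out, 10 of 15 of these partners were lower and the median was -0.095.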

How the data were processed

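The values are intensity on a linear scale, as processed and deposited by the authors for 6 one-colour arrays; the sources used here do not name the software, background correction or scaling. Array medians ran from 81.4 to 91.5, and 264 to 409 values per array were below 0. Values under 1 were set to 1, log2(value + 16) was taken and arrays were quantile normalised. All 44991 probe sets were fitted with lmFit and eBayes of limma 3.58.1 (R 4.3.3) as a two-sided test, and p-values were adjusted over all of them by Benjamini-Hochberg; intervals use 7.81 degrees of freedom. The code was tested on simulated data. Of the probe sets, 34921 had 1 platform symbol, 930 several and 9140 none; a gene took its probe set with the highest mean. All 46 members matched RefSeq gene IDs.

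Members and lists were chosen with earlier results of these data known. Named members were the D and E cyclins, Cdk2, Cdk4, Cdk6, Cdc25 and E2F genes and the 12 others of smallest p; of partner lists, those with p under 0.05 or the smallest. Nothing says whether pools came from separate experiments, so p-values measure the spread between pools. The number of arrays limits the precision. Alternatives were scaling, pseudocounts, a filter, variance models, array weights, a replicate block, probe set choices and leaving out each array; leaving out probe sets ending in _x_at, and wildtype pool 2 for the partner lists, were chosen after seeing the data. Figures used Python 3.11.15 and matplotlib 3.10.9.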

Additional observations from a re-analysis of the deposited data

How the results depend on the processing

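In all 16 alternatives 0 members passed the adjusted threshold in limma. The count of members with an unadjusted limma p under 0.05, 1 as reported, was 3 with the values as deposited (Cdk4, E2f4 and Ccnc), 2 with a pseudocount of 1, 5 with 64 (Cdk4, E2f2, E2f6, E2f7 and Ccna1), 2 with the filter at the 40th percentile, 4 with array weights (Cdk4, E2f4, E2f7 and Ccna1), 2 with the mean of all probe sets, and 0 without probe sets ending in _x_at, an alternative chosen after seeing the data. Pool numbers are not taken as pairs (same-numbered pools' deviations correlated at 0.18, 0.061 and -0.039 over probe sets). With the number as a replicate block the count of members with an unadjusted limma p under 0.05 was 0. The block changes neither the differences nor the values, so the 23 higher members and the 7 without overlap were fixed in advance there. With 1 array left out the count at that p was 1 to 3, with 3 without wildtype pool 2 (Cdk4, E2f4 and Ccna1) and 2 without knockdown pool 1 (E2f4 and Cdk18). The count of members whose groups did not overlap, 7 as reported, was 3 with the values as deposited (Cdk4, Ccnc and Ccny) and 3 with the mean of all probe sets. It was 9 to 13 with 1 array left out, where fewer arrays have to be separated, with 11 without wildtype pool 3, 11 without knockdown pool 2 and 13 without knockdown pool 3. Among the 31 members described by array, 19 kept their sign in every alternative run. The filter, the variance models and the replicate block leave each difference as it was, so no sign could turn in those. With the values as deposited the sign turned for Ccne1 (-0.034), Ccne2 (-0.016), Cdc25c (-0.053) and E2f5 (-0.041), and with median centring for Ccnd2 (0.064). With array weights it turned for Ccnd2 (0.033), Ccne1 (-0.021), Cdc25c (-0.039) and E2f5 (-0.068). With the mean of all probe sets it turned for Ccnd2 (0.19), E2f1 (0.028), E2f5 (-0.045), E2f8 (-0.019) and Ccny (3.3e-05), and without probe sets ending in _x_at for E2f1 (0.049). With 1 array left out the differences ran from -0.00086 to 0.18 for Ccnd1, -0.10 to 0.12 for Ccnd2, -0.12 to 0.15 for Ccne1, -0.11 to 0.28 for Ccne2, -0.14 to 0.15 for Cdc25c, -0.023 to 0.066 for Cdk6, -0.075 to 0.12 for E2f5, -0.0027 to 0.20 for E2f8, -0.51 to 0.069 for Cdk17 and -0.24 to 0.048 for Ccnk. The cause of these changes was not tested. With 3 arrays a group the unadjusted 95% interval of a member reached a median of 0.38 to either side. Most differences under that size could thus not be told from 0 even before adjustment. Larger ones need not pass the adjusted limma test either: Spi1, at -1.76, had an adjusted p of 0.503.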

Other observations

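Genes that set CDK activity were also read. CDK inhibitors, which hold cyclin-CDK complexes inactive, were lower in 5 of 7 cases, with a median difference of -0.012 and 0 with an unadjusted limma p under 0.05. With wildtype pool 2 left out, 4 of 7 of the inhibitors were lower and the median was -0.018. Cdkn2b, which encodes the INK4 inhibitor of Cdk4 and Cdk6, had the smallest p and read 6.24, 6.23 and 6.32 in the wildtype pools and 6.57, 6.45 and 6.51 in the knockdown pools, without overlap (difference 0.24, SE 0.13, unadjusted limma p 0.0986). Kinases, adaptors and ubiquitin ligases that act on CDKs were higher in 9 of 15 cases, with a median of 0.11 and 0 past that p. With wildtype pool 2 left out, 9 of 15 of these regulators were higher and the median was 0.026. For 5 of these 15 genes all knockdown pools lay above all wildtype pools, or 33.3%, beside 8.42% of all genes. Named after their values were seen, they were Cables1, an adaptor of CDKs (0.64, SE 0.29), Fzr1, an activator of the anaphase-promoting complex (0.39, SE 0.19), the SCF ligase subunits Skp1 (0.25, SE 0.13) and Cul1 (0.13, SE 0.13), and Cdk2ap1, which binds Cdk2 (0.16, SE 0.13). In either direction, the groups did not overlap for 36.4% of the replication genes (8 higher, 0 lower). For partners of the transcriptional CDKs it was 40% (3 higher, 3 lower). The share was 0% to 14.3% in the other partner lists and 13.8% over all genes. Cables1 had the smallest p, 0.0594 by limma, and was highest in knockdown pool 3, at 9.90 beside 8.80 and 8.90 in the other knockdown pools.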
